A study of Mus musculus with 12 samples.

Results

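The genes described here are 9 lymphocyte genes, Cd3d, Cd3e, Cd3g, Cd247, Thy1, Cd5, Cd28, Lck and Cd79a, read in cells washed from mouse airways by bronchoalveolar lavage. They were chosen by name, with their values in lavage cells and in the RAW264.7 line already known. Their differences between groups are therefore given as descriptions without a test. Of the 9 genes, 8 were measured by probe sets paired with 1 gene, and these 8 were covered by 12 probe sets among 12393 genes in all. Lck was not analysed here.

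The 12 Affymetrix arrays fell into 4 groups of 3. RAW264.7, a mouse macrophage-like line transformed by a leukaemia virus, was either Unstimulated or cultured overnight with Estradiol at 1 ug/mL. The lavage cells, called BAL macrophages in the labels, came from intact Control mice or from Pregnant mice and went directly into RNA extraction per the design text. That text gives vehicle to the untreated RAW264.7 cultures, and the estradiol treatment field is attached to every sample, so samples were grouped by their group field. No label gives strain, age, sex, stage of pregnancy, any sorting of the lavage cells, or says whether replicates are separate animals, pools or cultures, so the p-values measure only the spread between these samples. Replicate numbers only name the arrays.

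A T cell reads antigen through its T cell receptor, which has no signalling tail of its own and relies on the CD3 chains (genes Cd3d, Cd3e and Cd3g) and the zeta chain (Cd247). Lck, a Src-family kinase, phosphorylates these chains, CD28 delivers the costimulatory signal, and CD5 and Thy-1 are surface proteins of T cells, CD5 acting as a brake on receptor signalling. Cd79a encodes the corresponding signalling chain of the B cell receptor. Healthy lavage fluid of mice is made up mostly of alveolar macrophages, with lymphocytes as a minority.

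The 3 CD3 genes lie next to each other on chromosome 9 in RefSeq's annotation, in the order Cd3g, Cd3d, Cd3e, with no other listed gene between them. Their promoter windows are shown because these 3 genes varied together across the 6 lavage arrays (Pearson r = 0.87 to 0.93). This was not particular to them, as Thy1 correlated with Cd5 and with Cd28 at 0.98 each. On its brightest probe set Cd247 correlated with the 3 genes at 0.35 to 0.46, and Cd79a correlated with them at -0.31 to -0.08. The other Cd247 probe sets were not used for these values. They had control replicates 1 and 2 highest in lavage, as the CD3 genes did. Windows of other members are not shown. Each window is the 250 bases before the RefSeq transcription start in build GRCm38.p6, read 5′ to 3′ on the gene's own strand. Capitals mark the ETS core AGGAAG or its reverse complement CTTCCT, a motif bound by ETS-family transcription factors of lymphoid and myeloid cells. Cd3d lies at chr9:44981536-44981785 on the plus strand, Cd3e at chr9:45009612-45009861 on the minus strand and Cd3g at chr9:44980432-44980681 on the minus strand.
Cd3d: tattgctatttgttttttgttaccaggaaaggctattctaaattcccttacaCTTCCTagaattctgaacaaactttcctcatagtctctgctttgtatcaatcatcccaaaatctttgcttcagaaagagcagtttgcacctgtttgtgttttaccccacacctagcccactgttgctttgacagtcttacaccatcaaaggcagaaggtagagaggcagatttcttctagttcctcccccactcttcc
Cd3e: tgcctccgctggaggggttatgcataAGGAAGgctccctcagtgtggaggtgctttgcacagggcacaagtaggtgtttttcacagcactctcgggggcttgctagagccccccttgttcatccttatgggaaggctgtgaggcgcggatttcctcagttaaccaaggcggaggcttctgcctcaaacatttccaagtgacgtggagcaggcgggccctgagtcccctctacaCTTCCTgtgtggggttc
Cd3g: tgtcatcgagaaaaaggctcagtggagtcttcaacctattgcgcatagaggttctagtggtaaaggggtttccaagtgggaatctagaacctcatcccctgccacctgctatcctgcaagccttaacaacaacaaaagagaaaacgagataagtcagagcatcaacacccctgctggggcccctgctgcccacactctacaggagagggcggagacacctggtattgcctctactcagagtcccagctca

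The Cd3d window held 1 ETS core, the Cd3e window 2 and the Cd3g window 0, while 29.5% of all 32851 windows of the same length held at least 1. The other motifs searched, on both strands, were the E-box CANNTG (66.2% of all windows), the RUNX core TGTGGT (14.0%), the GATA motif AGATAA (9.99%) and the TCF motif CAAAGG (17.6%). E-boxes were present in all 3 windows, with 1 in Cd3d, 1 in Cd3e and 3 in Cd3g. The Cd3g window alone of the 3 held the GATA motif, Cd3d alone held the TCF motif, and none held the RUNX core. No motif of the 5 was therefore shared by the 3 windows except the E-box, the commonest of them. These matches describe letters in a window and were not tied to any binding measurement.

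Values below are log2(intensity + 1), where the intensity is the deposited linear RMA value of a probe set, and a fold is 2 to the power of the difference on that scale. As a guide to dim signal, the 40th percentile of an array lay at 6.98 to 7.14. Median intensity per array was 369.5 to 392.8, arrays of a group correlated at 0.995 to 0.999 across probe sets, and pregnant with control arrays at 0.993 to 0.997. The number of arrays limits the precision. Levels are compared within a probe set only. The table holds no detection calls, so a difference from a group under the 40th percentile is measured against dim signal, and its fold is the measured one and not a bound on the true size.

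The lavage arrays carried the alveolar macrophage programme. Of 11 measured markers, 9 were higher on all 6 lavage arrays than on all 6 RAW264.7 arrays, where 23.3% of all genes were. Among them were Chil3, a chitinase-like secreted protein, and Car4, a membrane carbonic anhydrase. The other markers of the list were Fabp4 and Il1rn. Fabp4 went the other way, averaging 11.67 in control and 12.46 in pregnant lavage against 13.57 in unstimulated RAW264.7. Il1rn was about level, at 12.52 and 12.46 against 12.45. The summed intensity of this list was 93887 to 98337 in control and 96426 to 100351 in pregnant lavage. Epithelial genes were also present, with summed intensities of 28773 to 44502 and 33646 to 47651 against at most 888 in RAW264.7.

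The CD3 chains were read in lavage above their RAW264.7 level. They were dim to moderate there and highest on control replicates 1 and 2. Cd3e, the CD3 epsilon chain, read 7.68, 8.46 and 6.69 on control replicates 1 to 3 and 6.50, 7.0 and 6.08 on pregnant replicates 1 to 3. In RAW264.7 it read 5.05, 4.86 and 4.79 unstimulated and 4.99, 5.18 and 4.80 with estradiol. Every lavage array was thus above every RAW264.7 array, and the third control array lay inside the pregnant range. The group means were 7.61 ± 0.89 in control lavage, 6.53 ± 0.46 in pregnant lavage and 4.90 ± 0.14 in unstimulated RAW264.7 (SD, n = 3 each). Pregnant lavage was lower than control by 1.08 (-1.08, 2.12-fold), and control lavage was higher than unstimulated RAW264.7 by 2.71 (6.55-fold). Without control replicate 2 the pregnant difference was -0.66.

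Cd3g, the CD3 gamma chain, read 8.41, 7.90 and 5.45 in control lavage and 5.88, 6.20 and 5.57 in pregnant lavage, against 4.15 to 4.42 on the RAW264.7 arrays. Control replicate 3 was the lowest of all lavage arrays for this gene, so the group ranges overlapped, while the other control arrays stood above all pregnant arrays. The means were 7.26 ± 1.58 in control, 5.88 ± 0.31 in pregnant and 4.25 ± 0.10 in unstimulated RAW264.7 (SD, n = 3 each). The pregnant minus control difference was -1.37 (2.59-fold), smaller than the spread among control arrays. It was -0.80 without control replicate 1 and -2.28 without control replicate 3. Control lavage exceeded unstimulated RAW264.7 by 3.0 (8.02-fold), a difference that also carries the wide control spread.

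Cd3d, the CD3 delta chain, read 8.0, 7.80 and 6.70 in control lavage and 6.50, 7.29 and 6.24 in pregnant lavage. On RAW264.7 arrays it lay between 5.63 and 6.26, so that the lowest pregnant array fell just below the highest estradiol array. Pregnant replicate 2 was above control replicate 3 and the groups overlapped. The means were 7.50 ± 0.70 in control, 6.68 ± 0.55 in pregnant and 5.83 ± 0.19 in unstimulated RAW264.7 (SD, n = 3 each). The pregnant difference was -0.82 (1.77-fold) and the source difference 1.67 (3.18-fold). Within bulk RNA such as this, fewer T cells and less CD3 RNA per cell cannot be told apart.

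**Figure D1:**
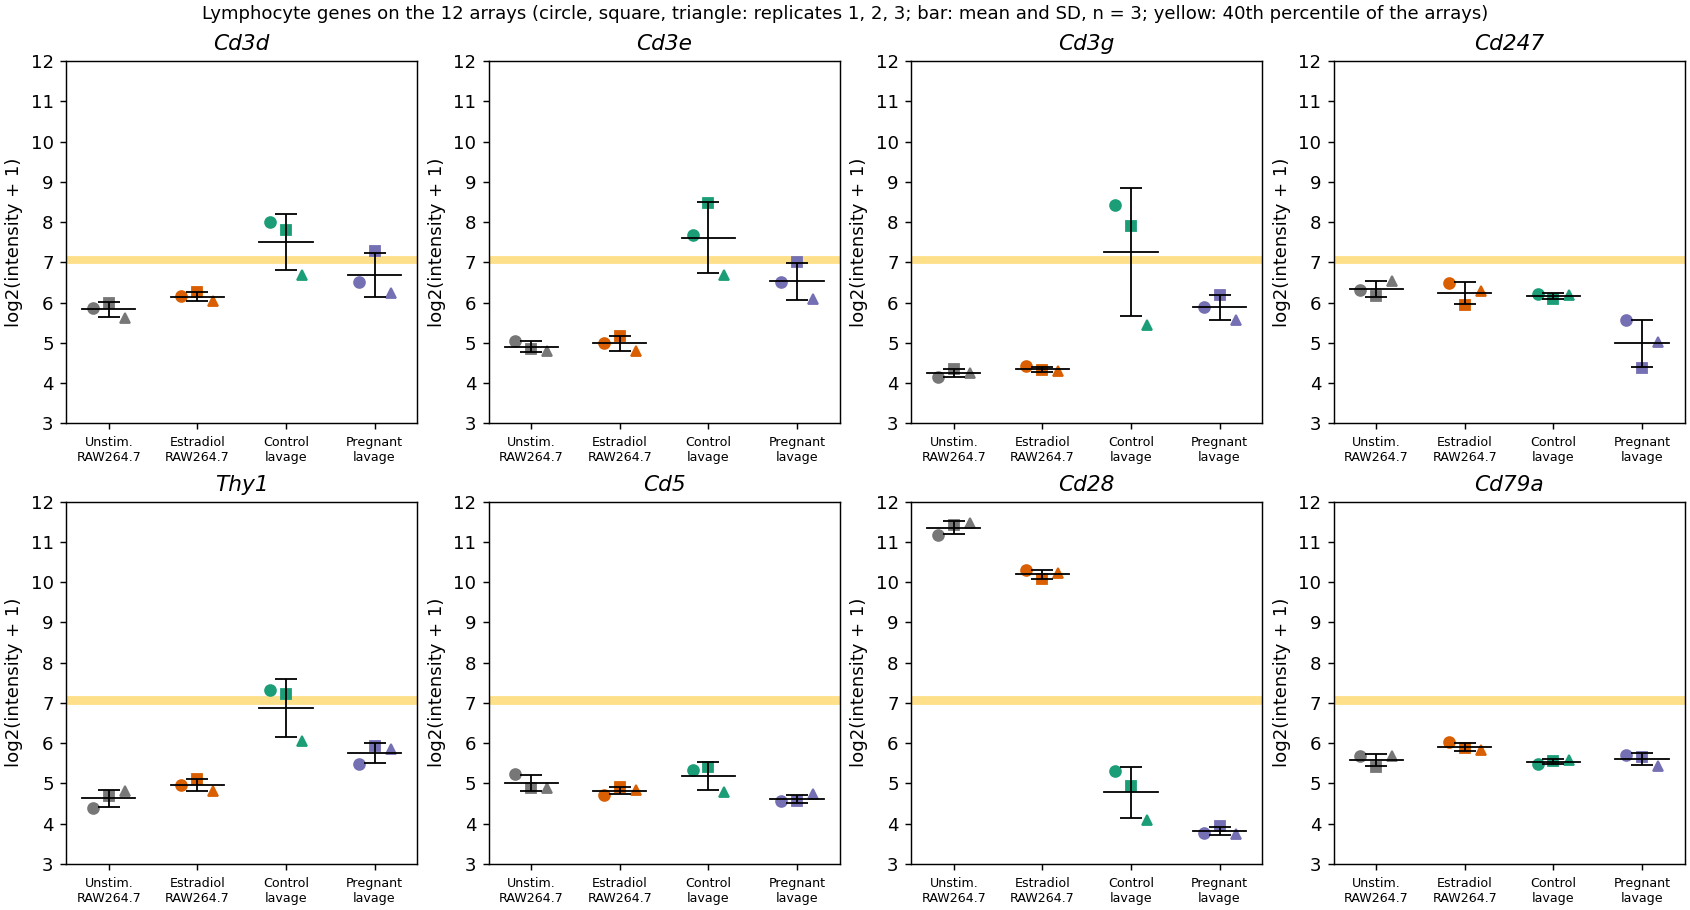
Each panel plots log2(intensity + 1) of 1 gene on the 12 arrays by group, with symbols for replicates 1 to 3, bars for the mean and SD (n = 3) and a yellow band for the arrays' 40th percentile. Cd3e, Cd3g and Thy1 lie higher on every lavage array than on every RAW264.7 array, control replicates 1 and 2 lead, and Cd28 shows the opposite order with RAW264.7 above 10 and lavage below 5.4.

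Thy1, a glycolipid-anchored surface protein of T cells, neurons and fibroblasts in mice, followed the same order of groups. It read 7.33, 7.23 and 6.05 in control and 5.49, 5.94 and 5.86 in pregnant lavage. Here all control arrays were above all pregnant arrays, though control replicate 3 was only slightly above pregnant replicate 2. RAW264.7 arrays read 4.40 to 5.11. The means were 6.87 ± 0.71 in control, 5.76 ± 0.24 in pregnant and 4.63 ± 0.21 in unstimulated RAW264.7 (SD, n = 3 each), which gives -1.11 for pregnant minus control and 2.24 for control lavage minus RAW264.7.

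The remaining members were not higher on every lavage array than in the line. Cd247, the zeta chain, has 4 probe sets. On the brightest of them control lavage read 6.22, 6.08 and 6.20, within the RAW264.7 range of 5.95 to 6.54, and pregnant lavage read 5.56, 4.39 and 5.02. All pregnant arrays were below all control arrays (-1.17), but they were below RAW264.7 as well. A second Cd247 probe set read 6.43, 6.27 and 5.55 in control, 5.40, 5.67 and 5.54 in pregnant lavage and 5.20 to 5.59 on RAW264.7 arrays, an order like that of the CD3 chains with a pregnant difference of -0.55. The other 2 probe sets differed by -0.19 and -0.13, so the Cd247 probe sets did not give 1 picture. Over the mean of the 4 probe sets the difference was -0.51.

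Cd5 stayed dim throughout, at 5.34, 5.42 and 4.79 in control and 4.55, 4.57 and 4.74 in pregnant lavage against 4.72 to 5.23 on the RAW264.7 arrays. Control replicates 1 and 2 were again the highest, control replicate 3 was just above the pregnant arrays, and the pregnant difference was -0.56. Cd79a, the B cell receptor chain, was level across lavage, at 5.48, 5.56 and 5.58 in control and 5.72, 5.65 and 5.44 in pregnant mice. These lavage values lay within the RAW264.7 range of 5.41 to 6.02, of which the estradiol arrays made up the top (5.83 to 6.02) and stood above all other arrays. Its pregnant difference was 0.06, the only rise among the 8 measured genes.

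Cd28 went against the use of RAW264.7 as a lymphocyte-free reference. The brighter of its 2 probe sets read 11.16, 11.41 and 11.47 on unstimulated RAW264.7 arrays and 10.29, 10.08 and 10.22 with estradiol, which placed it between the 63.2nd and 80.3rd percentile of those arrays. In lavage it read 5.31, 4.95 and 4.08 in control and 3.78, 3.94 and 3.74 in pregnant mice, below the 40th percentile throughout. Control lavage was lower than unstimulated RAW264.7 by 6.57 on the log2 scale (-6.57). The lavage arrays placed it between the 4.27th and 23.5th percentile, so no fold is given. The other probe set showed the same order, 9.72 to 9.84 unstimulated, 7.79 to 8.60 with estradiol and 3.98 to 4.40 in lavage. Since the RAW264.7 level of Cd28 is far above that of lavage, it cannot serve there as a floor for T cell signal. Within lavage the brighter probe set was lower in pregnant mice by 0.96 (-0.96), with no overlap between groups, but the other probe set read 4.40, 4.15 and 4.27 in control and 4.30, 4.04 and 3.98 in pregnant mice, which overlap.

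**Figure D2:**
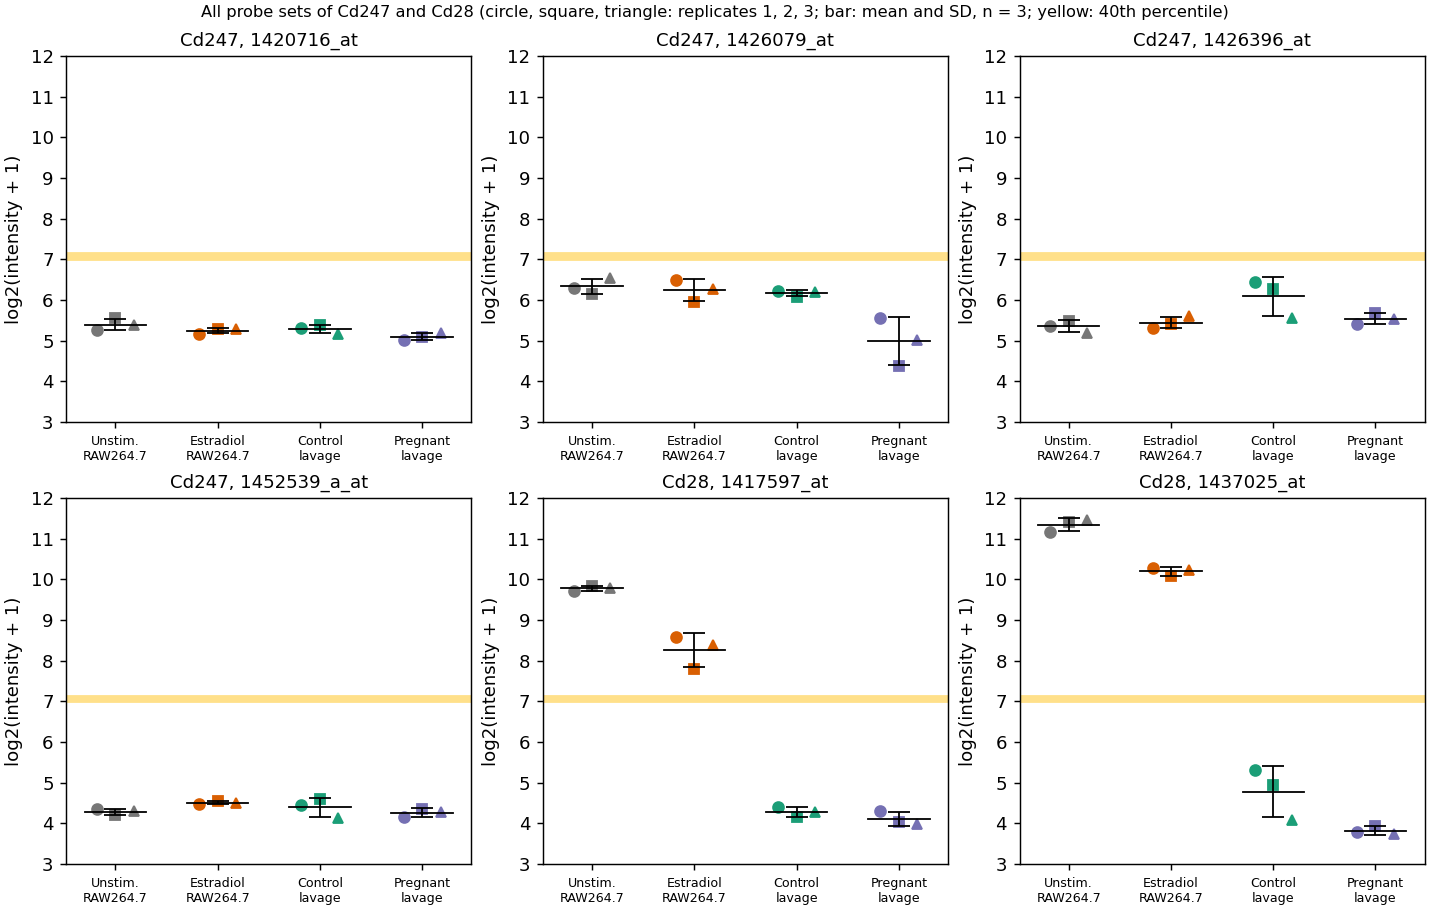
Each panel plots log2(intensity + 1) of 1 probe set of Cd247 (4) or Cd28 (2) by group, with symbols for replicates 1 to 3, bars for the mean and SD (n = 3) and a yellow band for the 40th percentile. Both Cd28 probe sets are bright in RAW264.7 and dim in lavage, while the Cd247 probe sets stay below the band and differ among themselves in whether pregnant lavage is lower.

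No filter on dim signal was applied. Cd3d lay above the 40th percentile on 3 of the 6 lavage arrays, Cd3e, Cd3g and Thy1 on 2 each, and Cd247, Cd5, Cd28 and Cd79a on 0, so a filter asking for 3 arrays would keep 1 of the 8 genes.

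As a group the measured members were lower in pregnant lavage. Of the 8 genes 7 were lower, where 39.5% of all genes were lower, and 4 were lower by at least 2-fold, where 0.210% of all genes were. The groups did not overlap for 4 genes, Cd247, Thy1, Cd5 and Cd28, where 4.99% of all genes were lower without overlap. The median difference was -1.02 against 0.03 over all genes. These counts come from the comparison that was in view when the genes were chosen, so nothing is read from them. In the limma fit over all genes 0 of 12393 genes passed an adjusted p under 0.05 between pregnant and control lavage (0.00%), and 1163 (9.38%) had an unadjusted p under 0.05.

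For most members the control arrays differed among themselves. On the probe sets used, control replicates 1 and 2 were the highest lavage arrays for 6 of the 8 members. These were Cd3d, Cd3e, Cd3g, Thy1, Cd5 and Cd28. The pattern was held by 5.50% of all genes and was noticed on these same arrays. It was also held by 14 of the 34 measured T cell genes outside the members, 6 of 19 B cell genes and 3 of 19 natural killer and cytotoxic genes. Control replicate 3 lay within or next to the pregnant range for every one of those 6 members. With that array left out, the pregnant difference was -1.23 for Cd3d, -1.54 for Cd3e, -2.28 for Cd3g, -1.52 for Thy1, -0.76 for Cd5 and -1.31 for Cd28, each farther from 0 than with it, whereas that of Cd247 was -1.16, slightly nearer to 0.

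Other measures differed between the lavage arrays too, and their part in these results was not tested. Neutrophil markers summed to 22158 on control replicate 1 and to 8132 and 7654 on the other control arrays, against 7695 to 12445 in pregnant lavage. Dendritic cell markers summed to 9103 to 11884 in control and 7275 to 10167 in pregnant lavage, with control replicate 1 and pregnant replicate 2 highest. Epithelial markers were highest on pregnant replicate 2 (47651) and control replicate 1 (44502). Of 15 such markers, 13 were higher in pregnant lavage, where 7495 of all 12393 genes were. In the limma fit 0 of the 15 passed, where 0 of all genes did. No marker was listed at 0, since RMA gives every probe set a positive value. Control replicate 2 had the lowest epithelial sum of the lavage arrays (28773). RNA quality varied as well. The 3′ minus 5′ difference of actin was highest on pregnant replicate 2 (0.39, log2) and 0.26 to 0.35 on the other lavage arrays. For Gapdh it was 0.34, 0.39 and 0.33 in control and 0.34, 0.44 and 0.36 in pregnant lavage, replicates 1 to 3. For the transferrin receptor it was 3.21, 3.38 and 2.84 in control and 2.83, 3.86 and 3.47 in pregnant lavage.

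**Figure D3:**
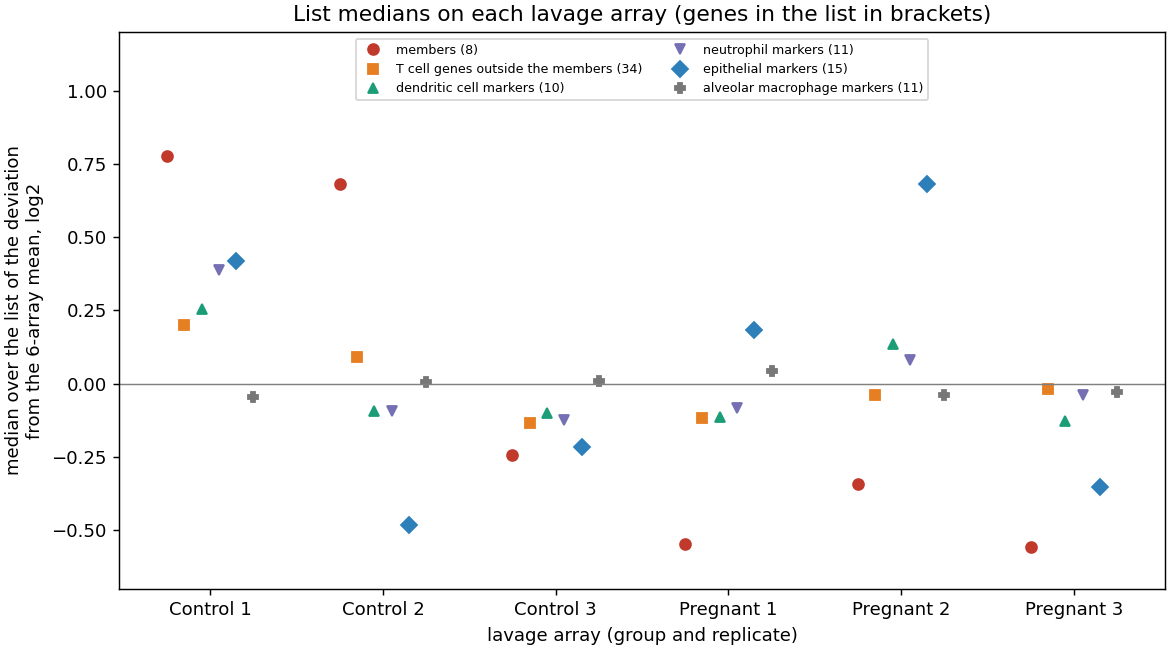
For each of the 6 lavage arrays the plot gives the median, over the genes of a list, of the deviation from the gene's mean over the 6 arrays (log2), with a symbol per list. The members are high on control replicates 1 and 2 (0.78 and 0.68) and below 0 on the other 4 arrays, while epithelial markers are high on control replicate 1 and pregnant replicate 2 (0.42 and 0.68) and alveolar macrophage markers stay near 0.

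Against the cell line, the direction depended on the member. All 6 lavage arrays were above all 6 RAW264.7 arrays for 3 of the 8 members, Cd3e, Cd3g and Thy1, as for 23.3% of all genes. They were all below for Cd28, as for 26.7% of all genes. Control lavage was higher than unstimulated RAW264.7 by at least 2-fold for 4 members (10.7% of all genes) and lower by at least 2-fold for Cd28 (8.89%). The median difference of the members was 0.93, against -0.07 over all genes. This comparison and the pregnancy comparison share the 3 control arrays, so a high control array moves both. With pregnant lavage in place of control, Cd3e and Cd3g each exceeded unstimulated RAW264.7 by 1.63, Thy1 by 1.13 and Cd3d by 0.85.

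In RAW264.7 the level of Cd28 was lower with estradiol, and the other members differed by at most 0.33. All 3 estradiol arrays were below all 3 unstimulated arrays for Cd28. The means were 11.35 ± 0.16 unstimulated and 10.20 ± 0.11 with estradiol (SD, n = 3 each), a difference of -1.15 (2.22-fold). The second Cd28 probe set was also lower (-1.52). Estradiol replicate 2 stood apart in RNA quality, with an actin 3′ minus 5′ difference of 0.74, and without it the Cd28 difference was -1.09. This comparison shares the 3 unstimulated arrays with the comparison of lavage and RAW264.7. No test of the members is given here either, since the values of all 4 groups were in view when the genes were chosen.

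Cd79a and Thy1 each differed by 0.33, Cd3d by 0.32, Cd5 by -0.18, Cd3g by 0.09, Cd3e by 0.09 and Cd247 by -0.09. Estradiol and unstimulated arrays did not overlap for Cd3d, Thy1 and Cd79a, which were higher on all estradiol arrays, as were 19.9% of all genes. These 3 genes lie under the 40th percentile on every RAW264.7 array. The median difference of the 8 members was 0.09 against 0.02 over all genes.

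Other T cell genes gave a mixed account of lavage. Of 44 listed T cell genes outside the members, 34 were measured, and in control lavage against unstimulated RAW264.7 the limma fit called 12 of them higher and 4 lower, against 27.9% and 34.0% of all genes. Cd2, an adhesion receptor of T and natural killer cells, was higher by 7.31 (adjusted p = 1.42e-08) and Rhoh, a GTPase of blood cells, by 4.78 (adjusted p = 1.98e-06). Ccr7, a chemokine receptor of T cells and migrating dendritic cells, was higher by 4.21, and Grap2, an adaptor of T cell receptor signalling, by 1.92. The level of Cd2 averaged 13.39 in both lavage groups and was even across arrays, unlike the CD3 chains. The coreceptor genes Cd4 and Cd8a, named here after their values were seen, averaged 6.70 and 5.80 in control lavage and 6.60 and 5.82 in pregnant lavage, under the 40th percentile.

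Between pregnant and control lavage the same T cell list had 0 of 34 genes called by limma, where 0 of all 12393 genes were. At an unadjusted p under 0.05 there were 4, where 9.38% of all genes were. Of the 34, 23 had lower means in pregnant lavage (39.5% of all genes), 5 of them by at least 2-fold (0.210% of all genes). The list median was -0.09 against 0.03 over all genes. Il2ra, the alpha chain of the interleukin-2 receptor, differed by -1.39 (adjusted p = 0.438). It read 7.39, 7.05 and 5.96 in control and 5.28, 5.62 and 5.33 in pregnant lavage, with no overlap. Cxcr6, a chemokine receptor of tissue-resident T cells, differed by -1.23 (adjusted p = 0.438) and Prkcq, the kinase that carries T cell receptor signals to NF-kB, by -0.33 (adjusted p = 0.396). Cxcr6 averaged 5.64 in control and 4.41 in pregnant lavage, under the 40th percentile. Foxp3, the factor of regulatory T cells, differed the other way by 0.19 (adjusted p = 0.516).

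Some T cell genes repeated the array order of the CD3 chains and were picked for it after their values were seen. Trat1, an adaptor associated with the T cell receptor, read 6.56, 6.20 and 4.01 in control and 4.12, 5.06 and 4.06 in pregnant lavage. Gimap3, a GTPase of lymphocytes, read 8.58, 8.87 and 7.15 in control and 6.75, 7.73 and 6.61 in pregnant lavage. In both, control replicates 1 and 2 were highest, pregnant replicate 2 came next and control replicate 3 fell near the other pregnant arrays.

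No gene of all 12393 was called between pregnant and control lavage, and so no B cell or cytotoxic gene was. Of 19 measured B cell genes outside the members (of 26 listed) 0 were called and 2 had an unadjusted p under 0.05. Of 19 measured natural killer and cytotoxic genes (of 20 listed) 0 were called and 2 had an unadjusted p under 0.05. The unadjusted share over all genes was 9.38%. Cd72, a B cell coreceptor also found on macrophages, differed by -0.58, Blk, a B cell kinase, by -0.50, Ighm, the heavy chain of immunoglobulin M, by -0.31 (0.0403 over the mean of its probe sets, the other direction) and Ebf1, a B lineage factor, by -0.15 (adjusted p = 0.461, 0.485, 0.592 and 0.559). Ctsw, a protease of cytotoxic cells, differed by -1.08, Cd244a, a receptor of natural killer cells, by -0.45, Klra8, a natural killer receptor, by 0.21 and Prf1, the pore-forming perforin, by -0.14, or 0.0451 over the mean of its probe sets, the other direction (adjusted p = 0.413, 0.449, 0.537 and 0.671). The immunoglobulin chain Jchain, named after its values were seen, read 6.52 on control replicate 1 and 3.90 to 4.23 on the other lavage arrays, so that array alone was high.

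Against RAW264.7 the B cell list had 4 genes called higher in control lavage and 5 lower of 19, against 27.9% and 34.0% of all genes. Cd22, a sialic acid receptor of B cells, was higher by 7.13 and averaged 12.50 in both lavage groups. The percentile used as a guide to dim signal was exceeded by 4, 2 and 1 of the 19 genes on control replicates 1 to 3. On pregnant replicates 1 to 3 it was exceeded by 1, 3 and 1. In control lavage Ms4a1 and Cd79b averaged 5.21 each, Pax5 4.48 and Ebf1 4.28. The cell source of the Cd22 signal was not tested. Cd72 (-6.76), Blnk, the B cell linker adaptor (-5.11), and Ighm (-1.80) were lower in control lavage. The line therefore carried bright B cell list genes, with Cd72 at a mean of 13.63 and Blnk at 11.96, as it did Cd28. Natural killer and cytotoxic genes had 6 of 19 called higher (27.9% of all genes) and 0 lower (34.0%). Those with the smallest p were Cd244a (5.39), Ctsw (1.64), Klrd1, a natural killer lectin receptor (1.32), and Prf1 (0.36). The Prf1 call was lost over the mean of its probe sets.

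With estradiol 6.75% of all genes were called higher and 4.66% lower in RAW264.7. Of the lymphocyte lists the limma fit called 1 of 34 T cell genes higher (Ltb, a membrane lymphotoxin, 0.53, adjusted p = 0.000893) and 1 lower (Ms4a4b, a tetraspan membrane protein of T cells, -1.03, adjusted p = 0.00408). It called 1 of 19 B cell genes higher (Spib, an ETS factor, 0.68, adjusted p = 0.0123) and 2 lower (Ighm, -0.86, adjusted p = 0.000979, and Blnk, -0.40, adjusted p = 0.00962). Ccl5, a chemokine made by T cells and macrophages, was the 1 of 19 cytotoxic genes called, higher by 0.49 (adjusted p = 0.00165). The Ighm call was lost over the mean of its probe sets (-0.11), and the Blnk and Spib calls were lost without unstimulated replicate 2 (adjusted p = 0.0506 and 0.0504). In a single fit of all 12 arrays Ltb, Ms4a4b, Blnk and Ccl5 no longer passed (adjusted p = 0.276, 0.321, 0.446 and 0.467).

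Of 20 listed genes that carry T cell receptor signals and are shared with other blood cells, 16 were measured. In control lavage against RAW264.7, 8 were called higher (27.9% of all genes) and 4 lower (34.0%). Dgka, a diacylglycerol kinase, was higher by 3.48 and Pag1, a membrane adaptor that recruits Csk, by 2.72, while Ptpn22, a phosphatase that restrains Lck, was lower by 4.99 (-4.99) and Nfatc2, a calcium-regulated transcription factor, by 1.09 (-1.09). Between pregnant and control lavage 0 of 16 were called, where 0 of all 12393 genes were. An unadjusted p under 0.05 was reached by 2, where 9.38% of all genes had one. The differences were 0.35 for Nfatc2, -0.24 for Nfatc1, -0.62 for Ptpn22 and 0.09 for the exchange factor Vav1 (limma adjusted p = 0.438, 0.493, 0.661 and 0.663). With estradiol Nfatc2 (-0.40) and the adaptor Nck1 (-0.25) were called lower and Dgka (0.35) higher, but these calls lay near the threshold. Over the mean of probe sets Nfatc2 differed by -0.0887 and Nck1 by -0.146, and neither was called. The Nck1 call was lost without any 1 array except estradiol replicate 2 (adjusted p = 0.0594 to 0.141), the Dgka call without any unstimulated array or estradiol replicate 3 (0.0534 to 0.115), and the Nfatc2 call without unstimulated replicate 1 or 2 or estradiol replicate 1 or 3 (0.0579 to 0.0872). The differences without single arrays were -0.28 to -0.24 for Nck1, 0.33 to 0.39 for Dgka and -0.39 to -0.35 for Nfatc2 where the call was lost.

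**Figure D4:**
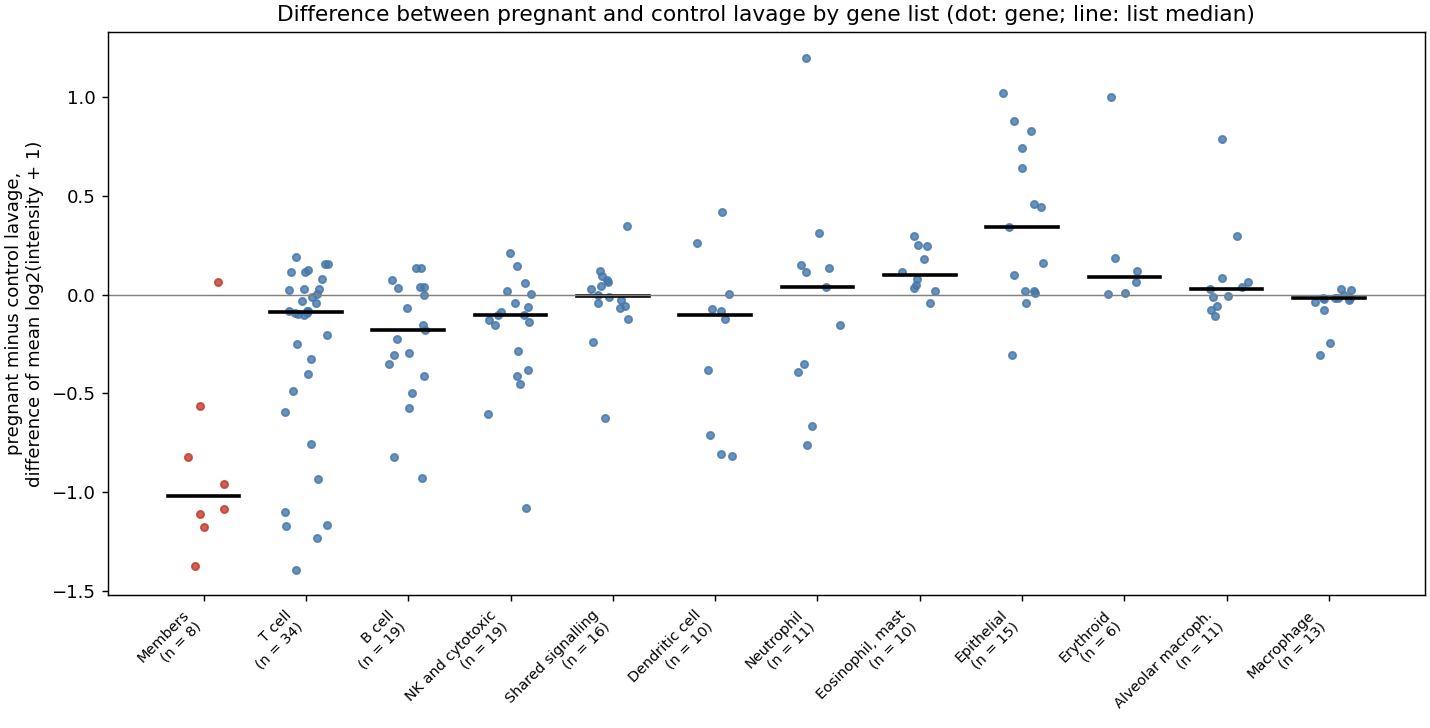
The plot shows, for each gene list, the pregnant minus control difference of mean log2(intensity + 1) of every measured gene as a dot and the list median as a line. The members, chosen with this difference known, have a median of -1.02, the T cell list outside them -0.09 with a tail of 5 genes below -1, and the epithelial markers 0.34.

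The genes whose lavage pattern was most like that of the members were ranked by Pearson r with the mean z-score of Cd3e, Cd3g and Thy1 over the 6 lavage arrays. They were taken from 842 genes lying at least 1 log2 unit higher on all lavage arrays than on all RAW264.7 arrays. Closest were Ripor2 (r = 0.98), Tceal1 (0.96), Ddx60 (0.94), an RNA helicase of antiviral defence, Stk26 (0.92), a protein kinase, Fpr2 (0.91), a formyl peptide receptor of phagocytes, Gpr35 (0.90), Trim30a (0.90) and Rbpms (0.89), an RNA-binding protein. Ripor2 read 8.21, 8.05 and 6.86 in control and 6.47, 6.84 and 6.68 in pregnant lavage. Fpr2, in contrast, spanned only 13.47 to 13.56. These correlations describe 6 arrays that share 2 groups, were the highest of many, and carry no p-value.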

How the data were processed

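Per the submitters' processing notes the authors made the deposited intensity of each probe set with RMA, with no version stated. The deposited values are on a linear scale, so log2(value + 1) was used here. Of 22690 probe sets, 20380 were paired with 1 gene symbol in the platform annotation, 691 named several genes, 1555 named no gene and 64 were array controls. These last 3 kinds were not used. The probe set with the highest mean stood for each gene.

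Each comparison was fitted on its 6 arrays with limma 3.58.1 (lmFit and eBayes, two-sided, R 4.3.3) over 12393 genes with Benjamini-Hochberg adjustment, called at an adjusted p under 0.05, after a test on simulated data. Promoter windows came from RefSeq. Of the 9 genes, 7 had a window, and Thy1 and Cd28 were not listed. Python 3.11.15, pandas 2.3.3, numpy 2.4.6 and matplotlib 3.10.9 were used.

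Alternatives were renormalization, a common median, no pseudocount or one of 16, a robust prior with an intensity trend, a filter on dim genes, the mean of probe sets, array weights, 1 fit of 12 arrays, an adjusted p under 0.01, intensity ranks and each array left out. The members and lists were chosen with earlier results of these data known. The naming rule took all members, up to 4 genes per lymphocyte or signalling list and comparison by smallest p, the 8 genes most like the members, and up to 4 markers of other cells by mean level.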

Additional observations from a re-analysis of the deposited data

How the results depend on the processing

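Array number (3 a group) and dim signal limit these values. No paired analysis was possible because the labels give no replicate numbers shared between groups. Among values of single genes, 792 stayed the same over the alternatives, 20 moved, 6 reversed, 31 lost a call and 1 gained one. For list genes, and for members with estradiol, the same meant an equal direction and side of the threshold. For members in the other comparisons it meant a shift smaller than the gene's SD within groups, with no threshold. Their rank differences, in other units, were always counted as moved. The members' median difference between pregnant and control lavage ranged from -1.27 to -0.74 with single arrays left out, and was -8.40 percentile points as intensity rank. Their estradiol median ranged from 0.0654 to 0.15 (rank 0.93) and their source median from 0.76 to 1.23 (rank 7.02). Genes called in the pregnancy fit numbered 0 to 2 with single arrays left out (2 without control replicate 1), 1 after a filter on dim genes and 18 in 1 fit of 12 arrays. In the estradiol fit 1414 genes were called, 637 to 1730 with single arrays left out, 4010 with array weights and 558 at an adjusted p under 0.01. In the source fit 7671 were called, 6793 to 7631 with single arrays left out. T, B and cytotoxic list genes called with estradiol numbered 6, 4 to 8 with single arrays left out, 21 with array weights and 2 in 1 fit of 12 arrays. Between control lavage and RAW264.7 they numbered 31, 26 to 39 with single arrays left out and 15 after the filter. The sign turned over the mean of probe sets for Ighm (0.0403) and Prf1 (0.0451) in pregnancy and Cd247 (0.0174) with estradiol. It also turned with estradiol for Cd247 without unstimulated replicate 3 (0.0109) or estradiol replicate 2 (range -0.220 to 0.0545 with single arrays left out), and for Cd3e without estradiol replicate 2 (range -0.0054 to 0.185). The cause was not tested.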
